A study of Sus scrofa with 12 samples.

Results

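The complement, coagulation and fibrinolysis genes of the sow endometrium, the inner lining of the uterus, were followed across 4 gestation diets in RNA-seq libraries from Landrace × Yorkshire sows in the second or the third parity. They were taken as every gene that the deposited table annotates to the KEGG pathway of complement and coagulation cascades, without the integrins and VWF and without any gene that is also annotated to the lysosome. This gave 76 of the 20674 genes in the table. The low-fiber diet held 3.73% crude fiber and was fed alone (L − N, the control) or with 0.05% N-carbamylglutamate (L + N). The high-fiber diet held 7.46% crude fiber and was likewise fed alone (H − N) or with 0.05% N-carbamylglutamate (H + N). N-carbamylglutamate (NCG) is an analog of N-acetylglutamate, the activator of the first step of the urea cycle, and is fed to raise arginine synthesis. Fiber was raised by replacing part of the corn with soybean bran and beet pulp, so that fiber level and feed ingredients cannot be told apart. Diets ran from breeding through the 114 days of gestation, and each group had 3 libraries, each read from whole endometrium rather than from sorted cells. The tissue was collected after the 114-day feeding, and all libraries are from day 114. The labels number the libraries within a group and do not tie them to separate animals, so the p-values measure the spread between these libraries.

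Complement is a set of plasma and cell-surface proteins that tag microbes, dying cells and debris. It starts by the classical route (C1q with its proteases C1r and C1s), by the lectin route (mannose-binding lectin with the MASP proteases) or by the alternative route (factor B and factor D), and all routes meet at C3. Coagulation is a chain of proteases that ends in thrombin, fibrin and the cross-linking of fibrin by factor XIII, and fibrinolysis removes the clot through plasmin. Most of the circulating proteins come from the liver, while C1q is made mainly by macrophages and many inhibitors and receptors are made locally. The porcine placenta is epitheliochorial, that is, the uterine epithelium stays intact and fetal tissue does not reach maternal blood.

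Members were expressed over a wide range. Length-normalized levels (FPKM, fragments scaled by gene length and library size) averaged over the 12 libraries were 100 or more for 11 members, 10 to under 100 for 18, 1 to under 10 for 16 and under 1 for 31. The highest was CLU (clusterin, a secreted chaperone that also blocks the terminal complex) at 801 FPKM, with 165 to 2647 between libraries. SERPING1, the C1 inhibitor, followed at 312 FPKM, and then came C1QB at 284, C1S at 253, C4BPA (the alpha chain of C4b-binding protein, chromosome 9, 67815544 to 67827509) at 250.0 and C1R at 215. Library ranges of neighbours in this order overlapped from SERPING1 down to C1R, and the level of C4BPA rests on a length of 716 bases in the table. A2M, a broad protease inhibitor, stood at 185 FPKM, C3 at 168, CD59 (which blocks pore formation on host cells) at 162, C1QA at 155 and PLAT, the tissue plasminogen activator, at 127.

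**Figure D1:**
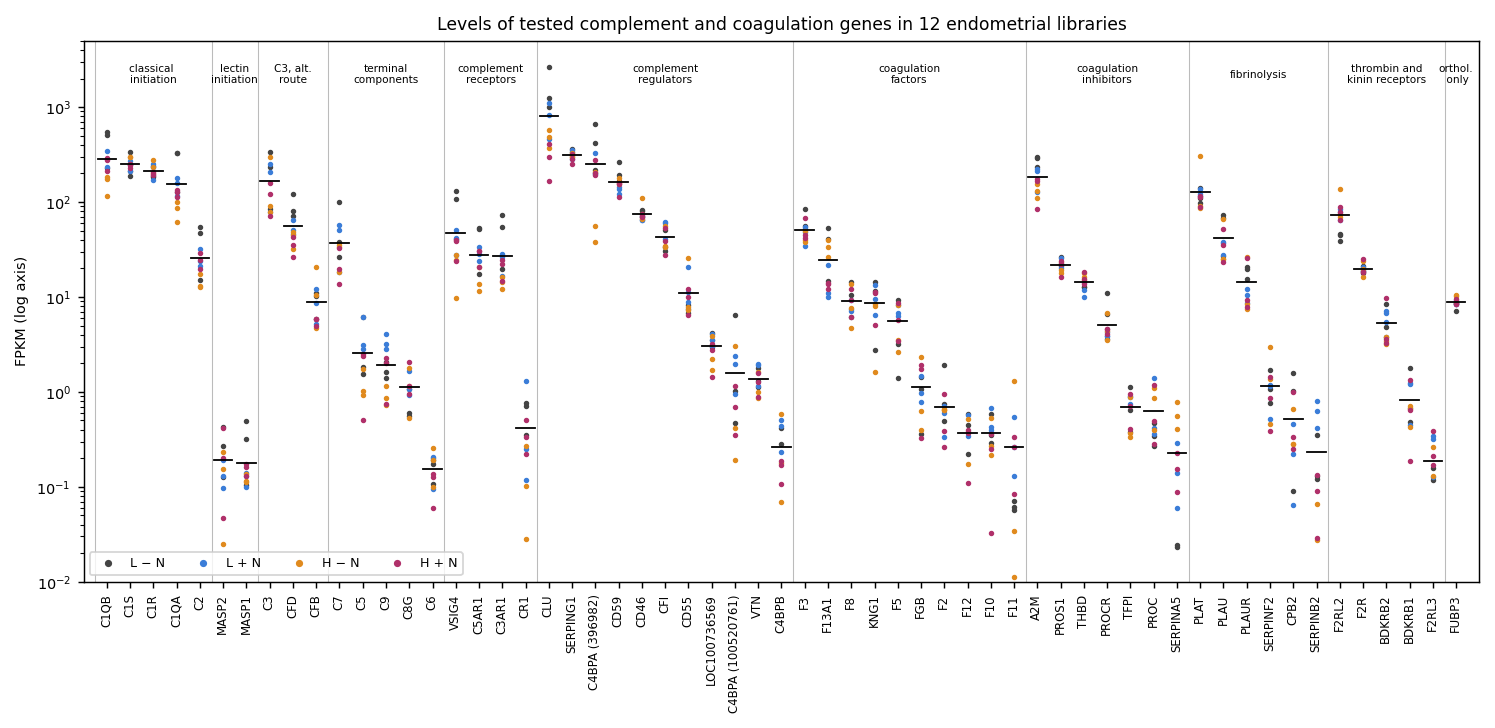
Each column is a tested member, grouped by role and ordered by mean within the role, with FPKM on a log axis. Points are the 12 libraries coloured by diet, bars are means over all 12, values of 0 are not drawn, and the column for CLU reaches the highest level at a mean of 801 FPKM.

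The levels were uneven along the pathway. Among initiation genes the C1 components that are members were between 155 and 284 FPKM on average. The lectin-route proteases MASP2 and MASP1 were at 0.193 and 0.177 FPKM, MBL1 was nearly undetected and MBL2 was at 0 in all 12 libraries. C3 was abundant, but of the later components C7 led at 37.1 FPKM, while C5, C9 and C8G were at 2.56, 1.92 and 1.12. In coagulation the cell-bound starter F3 (tissue factor) at 51.1 FPKM and the fibrin cross-linker subunit F13A1 at 24.2 were the highest factors. Of the other factors best known as liver products, KNG1 (kininogen) was at 8.62 FPKM and F5 at 5.6, while F2 (prothrombin), F10 and F12 were at 0.695, 0.365 and 0.374 FPKM. Of the 3 fibrinogen chains, FGB averaged 1.12 FPKM and FGA was at 0 in all 12 libraries.

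The 15 members that did not pass the filter on low counts were F7, F9, F13B, FGA, FGG, KLKB1, SERPINA1, SERPIND1, PLG, C8A, C8B, MBL1, MBL2, CD207 and LOC100515090. Their highest count in any library was 32, and 9 of the 76 members never exceeded 3 counts. Of 4 hepatocyte markers, ALB ranged from 0.123 to 1.32 CPM (library-size-scaled counts with edgeR's TMM factors) and TTR and AHSG did not pass the filter, whereas APOA1 was at 45.3 to 124 CPM. FUBP3 and CD207 entered through the KEGG orthology assignment alone, and their names belong to a DNA-binding protein and a Langerhans cell lectin.

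Some counts could be shared between genes. CFD lies wholly within MED16 on the other strand, and F2RL2 wholly within IQGAP2 on the other strand. In all, 10 members overlap another gene, and C4BPB overlaps PFKFB2 on its own strand. Libraries were strand-specific, but the setting used for counting is not given in the sources used here, so reads of overlapping genes cannot be told apart. The second C4BPA gene (chromosome 9, 67726159 to 67774369, 2830 bases long) averaged 1.59 FPKM, and the CD46-like LOC100736569 averaged 3.05 against 74.8 for CD46, with the split of reads between such near copies uncertain.

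The steadiest of the members tested were FUBP3, SERPING1, F2R, PROS1 and C1R, with a coefficient of variation (SD over mean FPKM) of 0.101 for FUBP3, 0.103 for SERPING1, 0.128 for F2R, 0.136 for PROS1 and 0.145 for C1R over the 12 libraries. F11 (factor XI) varied most of the members tested, with a coefficient of 1.37, with 8.48 CPM in H − N replicate 3 while all other libraries were at 3.15 CPM or less. The C1q chain genes among the members kept a narrow ratio, and so did the genes of the C1 proteases. C1QA over C1QB lay between 0.433 and 0.647 in FPKM, and C1R over C1S between 0.703 and 1.02.

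Total counts were 14369781 to 19309724 per library. Members took 1.06%, 1.57% and 1.35% of all counts in L − N, 0.751% to 1.09% in L + N, 0.711% to 0.914% in H − N and 0.594% to 0.792% in H + N. CLU alone gave 0.664% in L − N replicate 2 and 0.0413% in H + N replicate 3. Markers of endometrium (ESR1, PGR, HOXA10, HOXA11, FOXL2 and MUC1) were all expressed, with summed levels of 627 to 703 CPM in L − N and 945 to 1958 CPM in the other groups. The 4 smooth muscle markers summed to 3649, 1005 and 1415 CPM in L − N replicates 1 to 3 and to 554 to 1113 CPM in the other groups. Their median log2 fold change against L − N was −0.99 in H − N, −1.59 in L + N and −1.18 in H + N. Red cell markers, 3 of 4 tested, summed to 62.6 to 753 CPM in L − N and 26.6 to 293 CPM in the other groups, with medians of −3.49 in H − N, −3.04 in L + N and −1.10 in H + N. Both lists had negative medians beside the member falls against L − N, and their part in those results was not tested.

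L − N replicate 1 stood apart from the other 2 control libraries, in macrophage genes and beyond them. The chi-square per gene between 2 libraries measures how far their counts differ. It was 103.2 and 78.06 for the pairs of L − N replicate 1 and 24.25 for replicates 2 and 3. The 7 macrophage markers of L − N replicate 1 summed to 607 CPM against 1596 and 1633 CPM in replicates 2 and 3, and its level of C1QA, C1QB, C2, C3AR1, C5AR1 and VSIG4 was the lowest of the control group. Each comparison with L − N is therefore given with and without L − N replicate 1. H − N replicate 3 also differed from its group, with a chi-square per gene of 83.3 and 70.98 in its pairs against 25.03 for replicates 1 and 2. Its neutrophil markers summed to 171.9 CPM against 11.45 and 4.924 CPM. The pairs of H + N replicate 3 stood at 51.14 and 84.0 against 30.97 for replicates 1 and 2.

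The first question was whether more fiber alone changed these genes (H − N against L − N). Of the 61 members tested, 11 were differentially expressed (edgeR quasi-likelihood test with Benjamini-Hochberg adjustment over 15351 genes, adjusted p below 0.05 and absolute log2 fold change above 1), against 2.91% of all genes tested. C1QA, C1QB, C2, CFD, C3AR1, C5AR1, VSIG4, CLU and A2M fell, and SERPINA5 and F2RL2 rose. SERPINA5 passed the filter on low counts only through its H − N libraries, so its call is no independent evidence. All genes tested were called lower in 2.01% of cases and higher in 0.892%. The median log2 fold change was −0.43 over the members and 0.03 over all genes, and 41 of 61 members had a negative value against 46.5% of all genes. By contrast, 18 of 61 members, or 29.5%, had groups that did not overlap, which is near the 25.4% of all genes.

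The counts are given for complement and for coagulation separately, and the difference between them was not tested. Of 31 complement members, 8 fell, 0 rose and the median was −0.95. Of 29 coagulation and fibrinolysis members, 1 fell, 2 rose (F2RL2, and SERPINA5 with the filter limit above) and the median was −0.32. Without L − N replicate 1 the count was 12, with C4BPA and MASP1 added and F2RL2 lost, and the share of all genes called rose to 7.19% in the same fit. Leaving out L − N replicate 3 gave 0, and so did leaving out H − N replicate 1, with 0.0385% and 0% of all genes called. Leaving out L − N replicate 2 gave 1 (SERPINA5), with 0.787% of all genes called. Leaving out H − N replicate 2 or 3 gave 3 each, with 1.06% and 1.02% of all genes called. The count was 6 when H + N replicate 1 was dropped and 7 when L + N replicate 1 was dropped, with 1.93% and 2.03% of all genes.

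In the classical route, the 2 C1q chain genes fell together. C1QA (chromosome 6, 80586259 to 80589213, Sscrofa11.1) was at 198, 544 and 542 CPM in L − N, 261, 238 and 173 in L + N, 148, 133 and 100.3 in H − N and 208, 189.7 and 182 in H + N. All 3 H − N libraries lay below all 3 controls (log2 fold change −1.75 ± 0.33, adjusted p = 0.0229). C1QB, its neighbour on the chromosome, was at 269.6, 633 and 670.4 CPM in L − N, 381, 323 and 262 in L + N, 196, 215 and 144 in H − N and 325, 330.0 and 259 in H + N. The H − N libraries were the 3 lowest of the 12 (log2 fold change −1.50 ± 0.30, adjusted p = 0.0267). C1QC, the gene of the third chain, was outside the pathway annotation of the table and was at 334, 774 and 837 CPM in L − N, 429, 373 and 312 in L + N, 237, 234 and 174 in H − N and 355, 318 and 262 in H + N, which was also a fall in H − N (log2 fold change −1.59 ± 0.30, adjusted p = 0.0227).

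C2, the protease that joins C4b to form the C3 convertase, was at 39, 151 and 130.2 CPM in L − N, 77.2, 59.4 and 51.9 in L + N, 31.8, 44.6 and 35.7 in H − N and 75.5, 61.1 and 53.5 in H + N. It fell in H − N although the groups overlapped, with L − N replicate 1 below H − N replicate 2 (log2 fold change −1.51 ± 0.39, adjusted p = 0.0485). Neither C1 protease passed the test. C1S was at 1018, 587 and 667 CPM in L − N, 678, 784 and 605 in L + N, 853, 737 and 933 in H − N and 683, 719 and 765 in H + N, with no separation of any group, and its log2 fold change in H − N was 0.15 ± 0.20 with an adjusted p of 0.679. C1R was at 590.1, 496 and 483 CPM in L − N, 533, 601 and 399 in L + N, 548, 496 and 711 in H − N and 502, 471 and 496 in H + N, and its log2 fold change in H − N was 0.16 ± 0.17 with an adjusted p of 0.61. In the lectin route neither MASP2 nor MASP1 passed. MASP2 was at 0.764, 0.376 and 1.28 CPM in L − N, 0.34, 0.524 and 0.262 in L + N, 0.415, 0.0693 and 0.69 in H − N and 0.132, 0.543 and 1.23 in H + N, all of them low.

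In the alternative route, CFD (factor D, the protease that cleaves factor B, chromosome 2, 77509792 to 77511988) was at 79.8, 144 and 94.2 CPM in L − N, 66.9, 54.4 and 49.8 in L + N, 48.6, 35.3 and 56.6 in H − N and 39, 46.4 and 30.9 in H + N. Every control library was above every library of the other 3 groups, and the fall in H − N passed the test (log2 fold change −1.18 ± 0.25, adjusted p = 0.0281). C3 itself was too variable to call. It was at 447, 1313 and 1901 CPM in L − N, 1245, 1058 and 394 in L + N, 454, 412 and 1658 in H − N and 633, 807 and 392 in H + N, with L − N replicate 1 far below its partners and H − N replicate 3 far above its own, and the log2 fold change in H − N was −0.54 ± 0.64 with an adjusted p of 0.648. CFB had a log2 fold change of 0.38 ± 0.47.

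None of the 5 terminal components passed. C7, the most abundant, was at 256, 70.7 and 101 CPM in L − N, 119, 139 and 44.3 in L + N, 86.4, 83.9 and 49.2 in H − N and 49.5, 80.3 and 35.7 in H + N, with the top value in L − N replicate 1, and its log2 fold change in H − N was −0.96 ± 0.52 (adjusted p = 0.281). C9, which forms the ring of the pore, had a log2 fold change of −0.95 ± 0.39 with an adjusted p of 0.16.

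All 4 complement receptors had negative log2 fold changes in H − N, 3 of them passed and the median of the 4 was −2.04. VSIG4, a receptor of C3 fragments on tissue macrophages (chromosome X, 52175601 to 52198635), was at 103, 288 and 346 CPM in L − N, 120.0, 101 and 67.8 in L + N, 58.8, 69.4 and 25.8 in H − N and 97, 96.6 and 63 in H + N. The 3 H − N libraries lay below the controls, with replicate 3 the lowest of all 12 (log2 fold change −2.26 ± 0.46, adjusted p = 0.0273). C3AR1, the receptor of the C3a peptide, was at 81.1, 237 and 315 CPM in L − N, 102, 113 and 65 in L + N, 47.9, 66.6 and 62.1 in H − N and 101, 87.2 and 62 in H + N, and H − N did not overlap the controls (log2 fold change −1.84 ± 0.41, adjusted p = 0.0326). C5AR1, the receptor of C5a, was at 43.9, 138 and 144 CPM in L − N, 78.4, 69.8 and 57.4 in L + N, 33.1, 52.4 and 30.8 in H − N and 76.3, 73.9 and 54.1 in H + N. Here L − N replicate 1 lay below H − N replicate 2, so the groups overlapped (log2 fold change −1.48 ± 0.38, adjusted p = 0.047). CR1, the remaining receptor, was at 5.28, 2.57 and 5.17 CPM in L − N, 1.6, 8.56 and 0.785 in L + N, 1.76, 0.694 and 0.207 in H − N and 2.31, 3.37 and 1.59 in H + N and had a log2 fold change of −2.25 ± 0.87 with an adjusted p of 0.144.

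Among 12 complement regulators tested, only CLU passed in H − N. CLU (chromosome 14, 11336585 to 11352569) was at 2557, 7041 and 3353 CPM in L − N, 1963, 2658 and 1118 in L + N, 1381, 932 and 1288 in H − N and 748, 986 and 431 in H + N. The controls spread widely, from 2557 to 7041 CPM, yet all 3 lay above all H − N and all H + N libraries, and the fall in H − N passed the test (log2 fold change −1.85 ± 0.44, adjusted p = 0.0379). SERPING1 was at 597, 669 and 736 CPM in L − N, 625, 573 and 512 in L + N, 599, 565 and 604 in H − N and 534, 588 and 493 in H + N, a narrow range in which the H − N libraries differed from the controls by a log2 fold change of −0.18 ± 0.12 (adjusted p = 0.405). C4BPA was at 158, 318 and 504 CPM in L − N, 136, 226 and 135 in L + N, 38.3, 147 and 28.9 in H − N and 200.3, 133 and 151 in H + N. H − N replicates 1 and 3 were the 2 lowest of the 12, and the fit missed the threshold (log2 fold change −2.20 ± 0.58, adjusted p = 0.0525). CD59 was at 518, 345 and 404 CPM in L − N, 223, 276 and 257 in L + N, 305, 349.9 and 318 in H − N and 304, 302 and 234 in H + N, and its log2 fold change in H − N was −0.38 ± 0.17 (adjusted p = 0.185). The other membrane regulators, CD46 and CD55, had values of 0.07 ± 0.19 and 0.83 ± 0.48, and CFI, a plasma protease that inactivates C3b, of 0.06 ± 0.27.

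**Figure D2:**
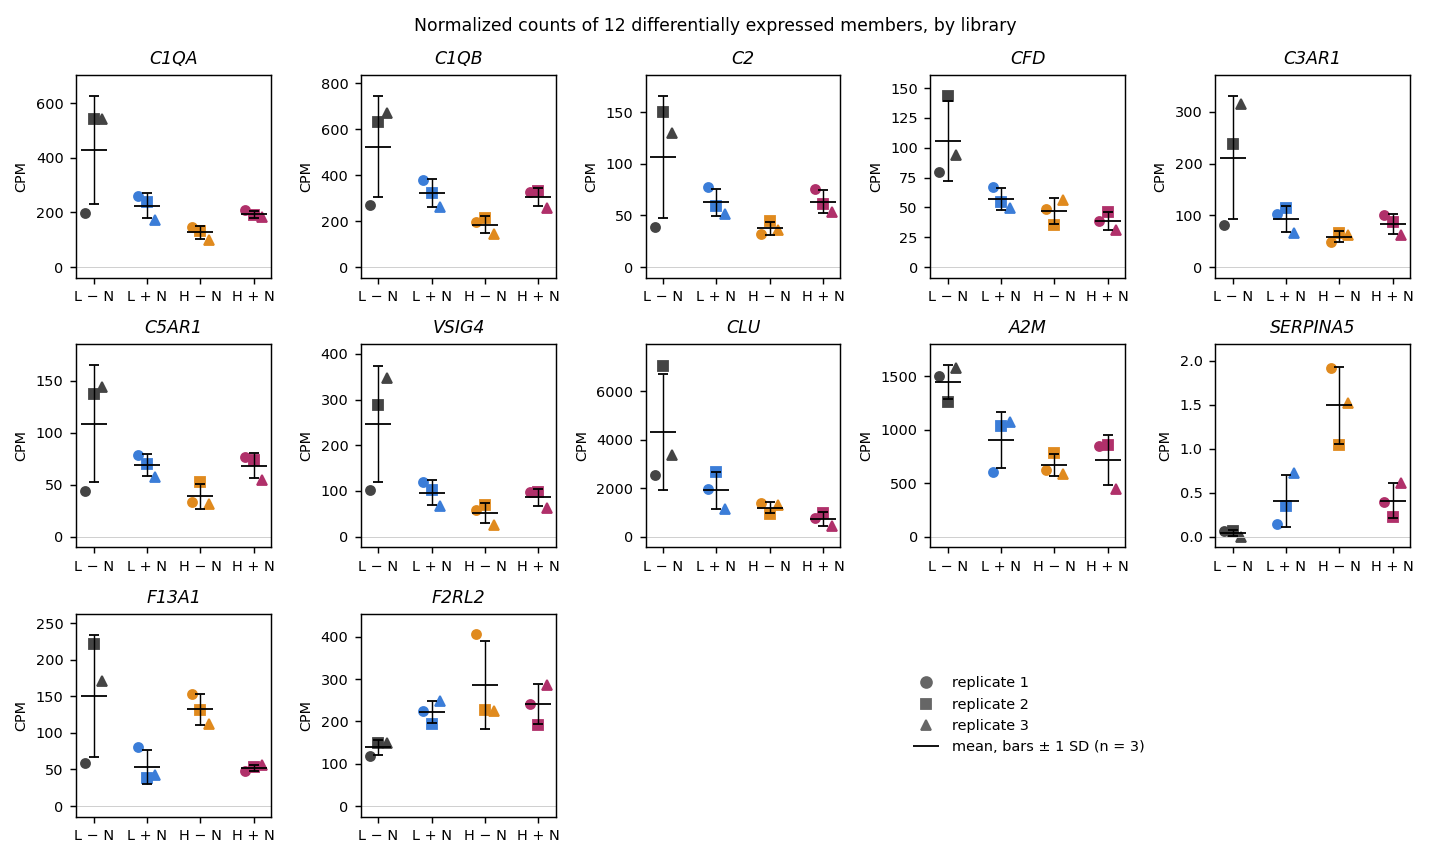
Each panel is 1 of 12 members differentially expressed in any comparison, with CPM on a linear axis from 0, 1 symbol per library by diet and replicate number, and the mean with ± 1 SD (n = 3). CFD and A2M show all 3 L − N libraries above the other 9, whereas in C1QA, C2 and VSIG4 replicate 1 of L − N lies far below replicates 2 and 3.

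None of the 10 coagulation factors tested passed in H − N. F3 was at 103, 164 and 100.3 CPM in L − N, 58.9, 96.1 and 84.8 in L + N, 69.1, 90.4 and 72.5 in H − N and 76.6, 79.7 and 129.7 in H + N, with each control at or above 100.3 CPM, each H − N library lower, and a log2 fold change of −0.67 ± 0.26 (adjusted p = 0.149). F13A1 had a log2 fold change in H − N of −0.18 ± 0.40. F8 and F5, the cofactors of the chain, had −0.32 ± 0.37 and 0.01 ± 0.63.

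Of the 7 inhibitors of coagulation tested, A2M was called lower in H − N and SERPINA5 higher, the latter with a limit given below. A2M (chromosome 5, 62406928 to 62483690) was at 1500.4, 1264 and 1579 CPM in L − N, 607, 1033 and 1078 in L + N, 628, 787 and 588 in H − N and 849, 853 and 445 in H + N. Every control was above every other library, and the fall in H − N passed (log2 fold change −1.12 ± 0.27, adjusted p = 0.0423). SERPINA5, the protein C inhibitor (chromosome 7, 115799414 to 115810825), was higher in H − N than in the controls, where it was almost absent. It was at 0.0637, 0.0627 and 0 CPM in L − N, 0.146, 0.349 and 0.719 in L + N, 1.92, 1.04 and 1.52 in H − N and 0.396, 0.217 and 0.613 in H + N, and the control counts were 1, 1 and 0 against 37, 15 and 22 in H − N. Its counts were 3, 6 and 11 in L + N and 6, 4 and 10 in H + N. SERPINA5 thus passed the filter on low counts only through the H − N libraries. Its test in H − N draws on the group where it is high and is no independent evidence of a rise. With the floor of 3 counts per library in place of the controls, SERPINA5 in H − N was at least 7.71-fold higher than the controls. The lower bound was 2.09-fold for L + N and 2.11-fold for H + N. The edgeR test gave an adjusted p of 0.0192 in H − N, 0.0553 in L + N and 0.057 in H + N. THBD (thrombomodulin) and PROS1 (protein S) had log2 fold changes in H − N of 0.27 ± 0.15 and −0.26 ± 0.16, and neither passed.

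None of the 7 fibrinolysis genes passed in H − N. PLAT was at 238, 362 and 282 CPM in L − N, 274, 274 and 319 in L + N, 213, 208 and 781 in H − N and 281, 208 and 284 in H + N, between 208 and 362 CPM in 11 libraries and higher in H − N replicate 3, with a log2 fold change of 0.45 ± 0.43 (adjusted p = 0.555). PLAU, the urokinase, had −0.58 ± 0.48. Of the thrombin and kinin receptors, F2RL2 (the thrombin receptor PAR3, chromosome 2, 85534188 to 85542062) rose. It was at 119, 149 and 148 CPM in L − N, 226, 194 and 248 in L + N, 407, 227 and 225 in H − N and 242, 192 and 286 in H + N, with all 3 controls below all other libraries (log2 fold change 1.05 ± 0.23, adjusted p = 0.0332). Without H − N replicate 1 its log2 fold change was 0.71 and no longer past the threshold. The main thrombin receptor F2R had −0.02 ± 0.17. FUBP3 was at 90.9, 78.5 and 94.3 CPM in L − N, 80.8, 85.1 and 92.1 in L + N, 104, 105 and 96.9 in H − N and 87.3, 84.9 and 104 in H + N, and its log2 fold change in H − N was 0.22 ± 0.11 (adjusted p = 0.266).

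Leaving out each of the 12 libraries in turn moved the called values of H − N against L − N as follows. SERPINA5 stayed called in 10 of 12 fits, with the filter limit given above. CFD stayed in 8 of 12, C1QA in 7 of 12, C1QB in 7 of 12, VSIG4 in 7 of 12 and C3AR1 in 7 of 12. F2RL2 stayed in 6 of 12, CLU in 5 of 12 and A2M in 4 of 12. C2 and C5AR1 stayed in 1 of 12 each, the fit without L − N replicate 1. The log2 fold changes kept their sign in these fits, with −2.09 to −1.54 for C1QA, −2.63 to −1.93 for VSIG4, −2.11 to −1.30 for CLU and −1.34 to −0.89 for CFD.

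Macrophage markers were lower in H − N, as were C1QA, C1QB, C2, C3AR1, C5AR1 and VSIG4. All 7 (CD68, CD163, CSF1R, MRC1, AIF1, CD14 and MSR1) had negative log2 fold changes in H − N, with a median of −1.56, and CD68, CD163, CSF1R and CD14 passed the test. Their summed level was 607 to 1633 CPM in L − N, 314 to 480 CPM in H − N, 445 to 663 CPM in L + N and 431 to 601 CPM in H + N. CLU and CFD, which also fell in H − N, did not follow the markers between the high-fiber groups. In H + N against H − N the marker median was 0.27. Mean CLU was 1200.2 CPM in H − N and 722 in H + N, and mean CFD was 46.8 and 38.7 CPM. No member was called in that comparison. CD163, a scavenger receptor of tissue macrophages, was at 186, 690.3 and 692 CPM in L − N and 142, 139 and 106 in H − N (log2 fold change −2.02 ± 0.42, adjusted p = 0.0279). CSF1R, the receptor that macrophages need to survive, was at 159.7, 326 and 381 CPM in L − N and 100.0, 111 and 64 in H − N (log2 fold change −1.66 ± 0.31, adjusted p = 0.0225). In libraries of whole tissue, fewer cells of a type and less RNA per cell cannot be told apart, and the part of macrophage content in the complement values was not tested.

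**Figure D3:**
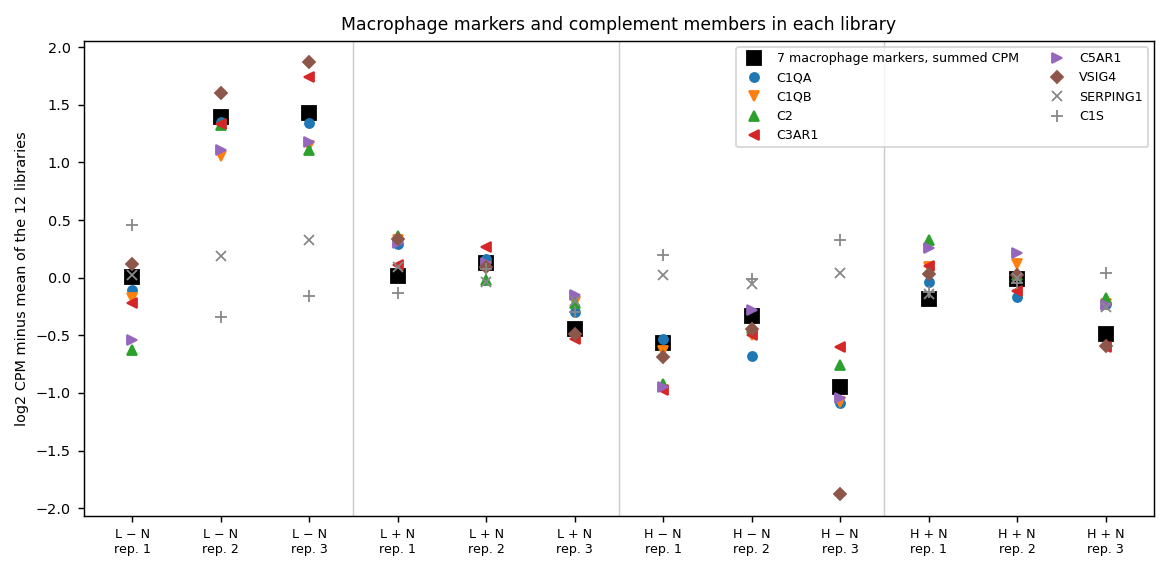
The vertical axis is log2 CPM minus its mean over the 12 libraries, shown for the summed macrophage markers (black squares), for C1QA, C1QB, C2, C3AR1, C5AR1 and VSIG4 (coloured) and for SERPING1 and C1S (grey), with the libraries on the horizontal axis. The squares and the coloured points are high in L − N replicates 2 and 3 and lower in H − N, and L − N replicate 1 lies below replicates 2 and 3, whereas SERPING1 and C1S vary less. CLU and CFD, which also fell in H − N, are not drawn.

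Further genes of the pathway, taken from a list of 35 in the table (components missing from the annotation, the excluded integrins and VWF, and related receptors and regulators), gave 31 tested. In H − N, C1QC, COLEC12, ITGAM and ITGB2 fell and 0 rose, against 2.01% of all genes called lower and 0.892% higher. In L + N against L − N, 1 of the 31 rose and 1 fell, against 3.99% of all genes called. For fiber over both NCG levels and NCG over both fiber levels 0 were called, against 0.0261% and 1.8% of all genes. ITGAM and ITGB2 form the complement receptor CR3 of myeloid cells. ITGAM was at 47.5, 99.8 and 160.3 CPM in L − N and 20.5, 24.8 and 18.5 in H − N (log2 fold change −2.27 ± 0.53, adjusted p = 0.0372), and ITGB2 at 45.7, 113 and 108 and 41.3, 40.5 and 35.3 (log2 fold change −1.19 ± 0.28, adjusted p = 0.0374). COLEC12, a collectin scavenger receptor, was at 39.7, 57.6 and 77.3 CPM in L − N and 24.1, 28.8 and 17.6 in H − N (log2 fold change −1.31 ± 0.34, adjusted p = 0.0491). C4A, the complement C4 gene of the table, was at 1048, 238 and 399 CPM in L − N, 713, 532 and 315 in L + N, 697, 378 and 428 in H − N and 355, 487 and 296 in H + N and did not pass (log2 fold change −0.16 ± 0.48, adjusted p = 0.87).

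The second question was what NCG did on the low-fiber diet (L + N against L − N, with the same control libraries). By this test 2 members, F13A1 among them, fell and 0 rose, against 3.99% of all genes called and 0.671% called lower. F13A1 (chromosome 7, 3751290 to 3900797) was at 59, 221 and 171 CPM in L − N, 80.3, 38.2 and 42.1 in L + N, 153, 132 and 112 in H − N and 48.4, 52.9 and 56.3 in H + N. Control replicates 2 and 3 were well above L + N, but replicate 1 was within the L + N range (log2 fold change −1.49 ± 0.41, adjusted p = 0.0436).

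By adjusted p alone 4 members passed in L + N, against 9.6% of all genes. The 2 below the fold threshold were CD59 and CFD, with log2 fold changes of −0.74 ± 0.17 (adjusted p = 0.021) and −0.89 ± 0.24 (adjusted p = 0.0433). The C1q genes, the receptors and CLU had lower means than the controls without passing, with C1QA at −0.93 ± 0.32, VSIG4 at −1.35 ± 0.44, C3AR1 at −1.18 ± 0.40 and CLU at −1.17 ± 0.43. Without L − N replicate 1 the count was 11, which added C1QA, C1QB, C2, C3AR1, C5AR1, VSIG4, MASP1, CLU and CFD, with 5.85% of all genes called in that fit. Dropping L − N replicate 3, L + N replicate 2 or L + N replicate 3 gave 0, with 0.918%, 1.18% and 2.47% of all genes called. F13A1 stayed called in 3 of 12 left-out fits. The median over members was −0.18 against −0.02 over all genes. Macrophage markers had a median of −1.03 with CD163 and CD14 called lower, and their part was not tested.

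Over both fiber levels together (NCG groups against groups without it), 2 members passed, F13A1 among them and both lower, against 1.8% of all genes called and 0.13% called lower. F13A1 gave a log2 fold change of −1.41 ± 0.29 with an adjusted p of 0.0166. The 6 NCG libraries lay between 38.2 and 80.3 CPM, and 5 of the 6 libraries without NCG lay between 112 and 221 CPM, with L − N replicate 1 at 59.0 CPM as the exception. F13A1 stayed called without any single library, 12 of 12 fits, at −1.61 to −1.22. By adjusted p alone 3 members passed, against 7.27% of all genes, and the 1 below the fold threshold was CD59 (adjusted p = 0.0332, log2 fold change −0.48 ± 0.12). Without L − N replicate 1 the members called were CLU and F13A1, with 1.71% of all genes. The count was 1, F13A1, when L − N replicate 3 was dropped, when any L + N library was dropped, and when replicate 2 of either high-fiber group was dropped. In these fits 1.01% to 1.79% of all genes were called.

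On the high-fiber diet, NCG (H + N against H − N) gave 0 members called and 0% of all genes by edgeR and 0 members by DESeq2. At an unadjusted p below 0.05 there were 5 members, against 8.67% of all genes. The groups did not overlap in 7 of 61 members, or 11.48%, which is near the 12.95% of all genes. F13A1 was 153, 132 and 112 CPM in H − N and 48.4, 52.9 and 56.3 in H + N, which did not overlap, with log2 fold change −1.33 ± 0.41, adjusted p = 0.474. SERPINA5 did not overlap either, and its fit was log2 fold change −1.86 ± 0.61, adjusted p = 0.474. C1QB was higher in each H + N library than in each H − N library (log2 fold change 0.72 ± 0.30, adjusted p = 0.548), and so were C1QA (log2 fold change 0.60 ± 0.32, adjusted p = 0.617) and C5AR1 (log2 fold change 0.81 ± 0.37, adjusted p = 0.576).

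**Figure D4:**
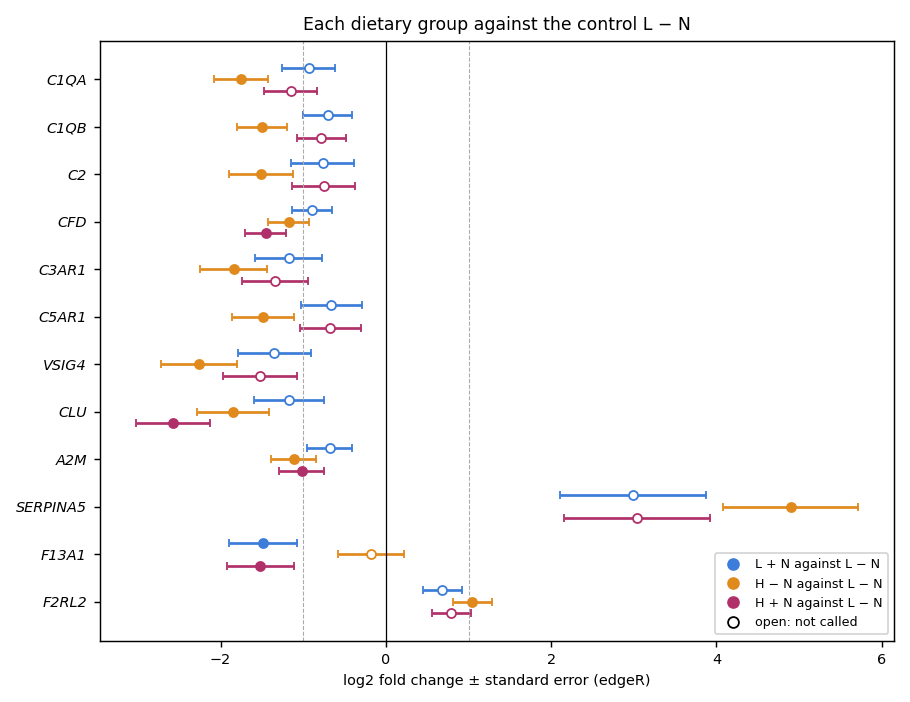
Points are log2 fold changes against L − N with bars of ± 1 standard error (edgeR) for the same 12 members, in L + N, H − N and H + N, and open points did not pass. Dashed lines mark a log2 fold change of 1 in either direction, and the SERPINA5 values rest on controls at or below 1 count, where the fitted size is not a bound.

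With fiber and NCG combined (H + N against the same L − N libraries) 5 members fell and 0 rose, against 3.58% of all genes called and 1.28% called lower. Among these were CLU (log2 fold change −2.58 ± 0.45, adjusted p = 0.0158), CFD (log2 fold change −1.45 ± 0.25, adjusted p = 0.0158), F13A1 (log2 fold change −1.52 ± 0.41, adjusted p = 0.0459) and A2M (log2 fold change −1.02 ± 0.27, adjusted p = 0.0458). CLU, CFD and A2M did not overlap the controls, and F13A1 in L − N replicate 1 was above the highest H + N library by less than 3 CPM. The groups did not overlap in 13 of 61 members, or 21.31%, against 27.97% of all genes. CLU was lowest here, with 722 ± 278 CPM (mean ± SD, n = 3) against 4317 ± 2392 in L − N, 1913 ± 771 in L + N and 1200.2 ± 237 in H − N. The members' median was −0.54 against 0.02 over all genes, and 48 of 61 members had a negative value against 48.3% of all genes.

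C1QA, VSIG4, C3AR1 and CD59 came close in H + N without passing, with adjusted p of 0.0513 for C1QA, 0.059 for VSIG4, 0.0619 for C3AR1 and 0.0508 for CD59. SERPING1 gave log2 fold change −0.31 ± 0.13, adjusted p = 0.136, and C3 had an adjusted p of 0.338. CLU and CFD stayed called in 10 of 12 and 10 of 12 left-out fits, F13A1 in 3 of 12 and A2M in 2 of 12. Without L − N replicate 1 the count was 10, with C1QA, C1QB, C2, C3AR1, C5AR1, VSIG4 and MASP1 added and A2M among those lost, and 6.09% of all genes were called. Dropping L − N replicate 3 gave 0, and so did dropping H + N replicate 1, with 0.0257% and 0.00642% of all genes called. The count was 2 when L − N replicate 2, L + N replicate 3 or either of the remaining H + N libraries was dropped, and 3 when L + N replicate 2 or H − N replicate 1 or 2 was dropped. Macrophage markers had a median of −1.24 with CD163, CSF1R and CD14 called lower, and their part was not tested. Of the 31 further pathway genes tested, C1QC (−1.06 ± 0.29) and FCN1, a ficolin of monocytes (−2.56 ± 0.66), fell and CSMD1, a membrane complement inhibitor (1.28 ± 0.28), rose, against 3.58% of all genes called.

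**Figure D5:**
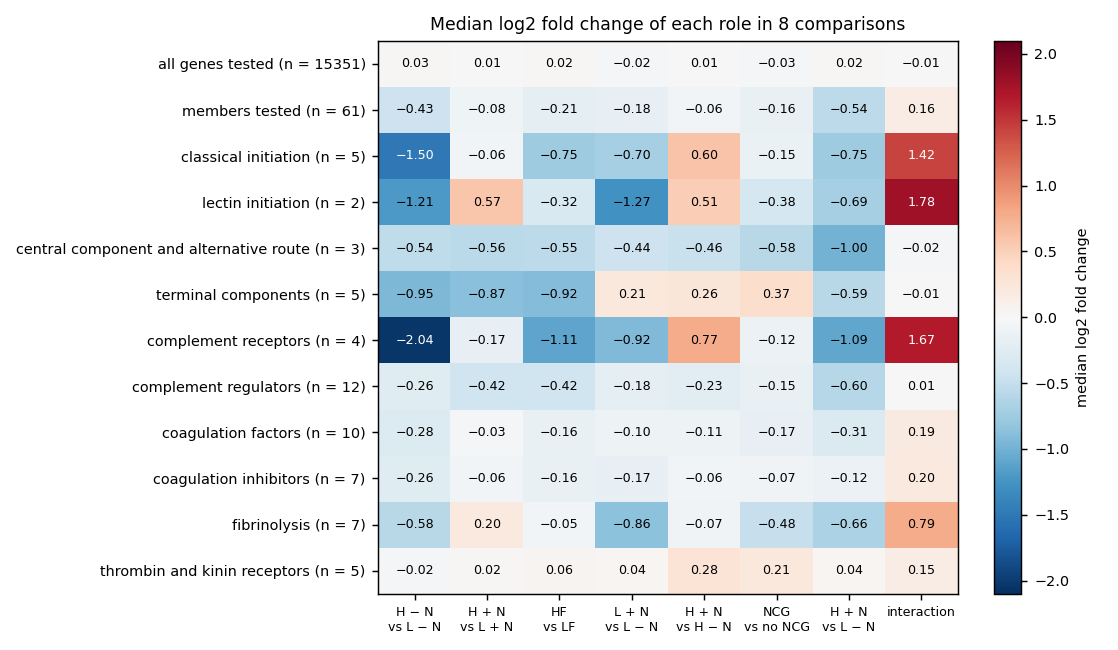
Cells give the median log2 fold change over the tested members of each role, with the number of members beside the role and the medians of all members and all genes on top. The complement receptors are the lowest at −2.04 in H − N against L − N, while the thrombin and kinin receptors stay between −0.02 and 0.28.

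Fiber over both NCG levels (high-fiber groups against low-fiber groups) called 0 members by edgeR, against 0.0261% of all genes. At an unadjusted p below 0.05 there were 18 members, 15 of them lower, against 19.5% of all genes, and DESeq2 called 7. CLU came closest (log2 fold change −1.63 ± 0.31, adjusted p = 0.0576). CFD gave log2 fold change −0.87 ± 0.17, adjusted p = 0.0678 and C1QA gave log2 fold change −0.98 ± 0.23, adjusted p = 0.078. SERPINB2, a low-count inhibitor of urokinase chosen after its values were seen, was at 0.7, 0.251 and 0.269 CPM in L − N, 1.16, 1.51 and 0.785 in L + N, 0.0518, 0 and 0.138 in H − N and 0.264, 0.0543 and 0.184 in H + N and gave log2 fold change −2.67 ± 0.55, adjusted p = 0.0678. Its counts were 11, 4 and 4 in L − N, 24, 26 and 12 in L + N, and at most 4 in any high-fiber library. SERPINB2 thus passed the filter on low counts only through low-fiber libraries. Its fit draws on the side where it is high and is no independent evidence of a fall. The count was 6 without L − N replicate 1 (C1QA, C3AR1, VSIG4, CLU, SERPINA5 and SERPINB2), with 2.13% of all genes called, and 1 without H + N replicate 2 (CLU), with 0.374%. The filter limits given for SERPINA5 and SERPINB2 apply to that count of 6.

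Fiber in the presence of NCG (H + N against L + N) called 0 members and 0% of all genes by edgeR, and 0 members by DESeq2. At an unadjusted p below 0.05 there were 5 members, against 4.68% of all genes. Of the genes that fell with fiber alone, C1QA here had a log2 fold change of −0.22 ± 0.32, with C1QB at −0.08 ± 0.30, VSIG4 at −0.17 ± 0.44 and C2 at 0.01 ± 0.38. CLU stood at −1.41 ± 0.43 with an adjusted p of 0.91.

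Whether fiber acted differently with NCG was tested as an interaction, which called 0 members and 0% of all genes by edgeR. At an unadjusted p below 0.05 there were 13 members, 11 with a positive term and 2 with a negative term, against 12.8% of all genes, and DESeq2 called C1QA, C1QB and VSIG4. The terms were 1.53 ± 0.45 for C1QA (adjusted p = 0.265), 1.42 ± 0.42 for C1QB (adjusted p = 0.268) and 2.09 ± 0.63 for VSIG4 (adjusted p = 0.273). Without L − N replicate 1 the interaction called C1QA, C1QB, C2, C3AR1, C5AR1, VSIG4 and MASP1, 7 members in all, with 2.22% of all genes called in that fit, and 0 members without any other single library. The macrophage markers had a median term of 1.34, positive in 7 of 7, and their part was not tested.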

How the data were processed

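Total RNA was extracted with Trizol, and strand-specific poly(A) libraries were sequenced as paired ends on an Illumina platform. The submitters' processing notes name fastp 0.22.0, HISAT2 2.1.0, HTSeq 0.9.1 and the genome Sscrofa11.1, with no role given. The deposited table holds raw read counts per gene, used for every test. The deposited FPKM values equal counts divided by length and library total and were used for levels between genes. Pathway annotation and coordinates came from the same table.

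Counts of 12 libraries were fitted with edgeR 4.0.16 in R 4.3.3 (filterByExpr, TMM, 1 mean per group, quasi-likelihood test, 8 residual degrees of freedom) and adjusted by Benjamini-Hochberg over 15351 genes. The script was checked on counts with known answers. Differential expression required an adjusted p below 0.05 and an absolute log2 fold change above 1, as in the study. Errors of log2 fold changes are standard errors. Total counts of 14369781 to 19309724 and a biological coefficient of variation of 0.2695 set the precision. Full values are given for members called in any of 8 comparisons, the 10 highest by FPKM and the highest of each role. The members, roles, gene lists and tests were chosen with earlier results of these data known, and the roles of PROCR, FUBP3, CD207 and the 2 CD46-like genes were assigned after the table was seen. Alternatives were RLE scaling, no filter, DESeq2 1.42.0, a replicate block, the 2 groups alone and leaving out each library. No sequences are shown, and 2 members that entered the counts are not reported here.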

Additional observations from a re-analysis of the deposited data

How the results depend on the processing

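Counts of members called were unchanged or within 1.5 times under RLE scaling and without the filter on low counts in all 8 comparisons. DESeq2 called 14 members in H − N against L − N, 6 in L + N against L − N, 9 in H + N against L − N, 7 for fiber over both NCG levels, 2 for NCG over both fiber levels and 3 for the interaction, with 913, 883, 988, 290, 355 and 184 among all genes. With only the 2 groups in the fit, the counts were 0, 1 and 0 in the comparisons of H − N, L + N and H + N with L − N, where 4 residual degrees of freedom are left. The replicate numbers did not pair the libraries: same-numbered libraries of different groups had correlations of −0.322 to 0.283 (median −0.0413), 3 of 18 pairs were over 0.1, and 3 of 12 libraries correlated best with their own number. The fit with a replicate block called 5 members in H − N against L − N, 1 in L + N against L − N, 2 in H + N against L − N and 1 for NCG over both fiber levels. For the replicate block and the 2 groups alone, no share of all genes is given here. Those counts therefore do not set members apart from other genes. Without 1 library at a time, the counts ranged from 0 to 12 in H − N against L − N, 0 to 11 in L + N against L − N, 0 to 10 in H + N against L − N, 0 to 6 for fiber over both NCG levels, 1 to 2 for NCG over both fiber levels and 0 to 7 for the interaction. The shares of all genes called in the first 3 of these ranged from 0% to 7.19%, 0.918% to 5.85% and 0.00642% to 6.09%. In the last 3 they ranged from 0% to 2.13%, 1.01% to 2.19% and 0% to 2.22%. The counts were 0 throughout in H + N against L + N and in H + N against H − N, with 0% of all genes. PLAT, which did not pass, ranged from −0.49 to 0.13 around its value of −0.33 for NCG over both fiber levels, and turned positive without H − N replicate 3. Of the values of single named genes, 247 kept their side of the threshold without a library, 122 were no longer past it, 2 newly passed and 1 turned. Under the other settings 119 kept it, 28 were no longer past it and 2 newly passed. The values that kept their side include genes that had not passed in the main fit and still did not. All 122 and all 28 had passed in the main fit, so 247 and 119 do not count stable calls. The causes were not tested. At this depth 15 members were not tested, with at most 32 counts in any library.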
